A study of Mus musculus with 10 samples.

Results

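The miR-99/100 and miR-125 families are a small group of microRNAs (miRNAs, short RNAs that pair with messenger RNAs and lower their output) made from hairpins that lie beside let-7 hairpins. The 5 members described here, mmu-miR-99a-5p, mmu-miR-99b-5p, mmu-miR-100-5p, mmu-miR-125a-5p and mmu-miR-125b-5p (written without mmu below), were taken by name from a table of 1340 mature mouse miRNAs, and all 5 were found in it. The small RNA came from the RPE/choroid/sclera, the pigmented, vascular and fibrous layers behind the neural retina, of C57BL/6J mice, wild type and 34 days old. There were 10 libraries, 5 from right eyes and 5 from left eyes, and the titles give 1 right and 1 left library each the number 61, 64, 65, 66 or 68. From postnatal day 24 every animal wore a -20 dioptre lens over 1 eye for 10 days, a treatment that drives eye growth toward myopia, while the other eye had no lens. The labels do not tell which eye wore it, so right was compared with left eyes. If the lens sat on the right in some animals and on the left in others, that comparison would average its effect away.

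miR-125 is the vertebrate counterpart of lin-4, which together with let-7 times larval development in Caenorhabditis elegans, and in mammals a miR-99 or miR-100 hairpin, a let-7 hairpin and a miR-125 hairpin are kept together in clusters. The miR-99/100 family is known for lowering mTOR and the IGF-1 receptor, both of the growth-factor pathway, and miR-125 for lowering Lin28, the protein that blocks let-7 maturation, in mammalian cells. In the mouse retina miR-125b is known as a miRNA of Müller glia.

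The sequences decide which members can share targets and which reads can be confused, so the mature forms are given first, as RefSeq lists them (GRCm38.p6), 5′ to 3′, with the seed (bases 2 to 8, the part that leads target pairing) in capitals.
miR-99a-5p: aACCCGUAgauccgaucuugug
miR-100-5p: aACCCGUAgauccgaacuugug
miR-99b-5p: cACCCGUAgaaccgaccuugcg
miR-125a-5p: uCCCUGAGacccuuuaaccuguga
miR-125b-5p: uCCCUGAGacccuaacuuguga
miR-351-5p: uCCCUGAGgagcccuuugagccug
miR-10a-5p: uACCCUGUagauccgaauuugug

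The members fell into 2 seed groups, ACCCGUA for miR-99a, miR-99b and miR-100 and CCCUGAG for miR-125a and miR-125b. Counted from 1 at the 5′ end, miR-99a-5p differs from miR-100-5p by the single substitution U16A. It differs from miR-99b-5p by A1C, U11A, U16C and U21C. The first 13 bases of miR-125b-5p (22 bases) and miR-125a-5p (24 bases) are the same. The sources used here do not give how the authors counted reads that match both miR-99a and miR-100, so the split between these members is uncertain. A RefSeq sequence was found for 1135 of the 1340 miRNAs, and among them the seed CCCUGAG also occurred in miR-351-5p, a rodent miRNA on the X chromosome, and in miR-6367, which was listed at 0 in 8 of 10 libraries. No miRNA outside the members had the seed ACCCGUA. miR-10a-5p, a miRNA of the Hox clusters, shares a run of 11 bases with miR-100-5p, from base 7 of miR-10a and base 6 of miR-100. The run is thus offset by 1 base, and the seeds differ (ACCCUGU against ACCCGUA).

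The member hairpins sit in 3 clusters, all on the plus strand. On chromosome 16 miR-99a-5p (77598940 to 77598961), let-7c and a copy of miR-125b-5p (77646279 to 77646300) lie in introns of the non-coding host gene Mir99ahg, within 47400 bases. On chromosome 9 miR-100-5p (41531437 to 41531458), let-7a and the other copy of miR-125b-5p (41581940 to 41581961) span 50565 bases and are intronic in the non-coding transcript 3110039I08Rik of the GENCODE annotation. The chromosome 17 cluster is compact, with miR-99b-5p (17830194 to 17830215), let-7e and miR-125a-5p (17830817 to 17830840) inside 683 bases of Spaca6. There miR-99b and let-7e are intronic, and miR-125a overlaps an exon of an annotated Spaca6 transcript. The miR-125b copies give the same mature sequence, so the miR-125b-5p signal is the output of both, while let-7a and let-7c are also encoded at further loci outside these clusters.

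The deposited values are a normalised signal per miRNA, given below in k, units of 1000. The sums over all miRNAs are nearly the same in all 10 libraries and the high values form steps that many libraries share, so an abundant miRNA takes the value of the rank it reaches. Depth is unknown, and no counting error can be given. The signal is not divided by length, but the members have 22 to 24 bases. The pigment epithelium miRNA miR-204-5p had the highest signal, and all 2 pigment epithelium and 4 fibroblast and smooth muscle markers were present in every library. The 5 photoreceptor and retina markers were present as well, with a summed signal of 189 to 1330 k in right eyes and 263 to 473 k in left eyes. Their part in the results below was not tested. The 1330 k came from right eye 68, which stood apart from the other 9 libraries in this sum, and with number 68 left out no member passed a test either. The 6 surface epithelium, cornea and lens markers summed to 25.3 to 206 k in right eyes and 63.99 to 245 k in left eyes, and no marker of the 8 lists was at 0 in any library.

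All 5 members were abundant, and they were about as high in every eye. Together they held 3.89 ± 0.22% of the summed signal in right eyes and 3.92 ± 0.36% in left eyes (SD, n = 5 each), with a range over the 10 libraries of 3.51% to 4.50%. Both ends of that range were left eyes, number 64 at the low and number 61 at the high end. The 2 miR-125 members made up 57.7% to 63.2% of the 5-member sum in each library and the 3 miR-99/100 members the rest. Less RNA per cell and fewer cells of a type cannot be told apart in such tissue samples.

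miR-125b-5p was the highest member. It had 148, 154, 148, 179 and 148 k in right eyes 61, 64, 65, 66 and 68, and 179, 148, 148, 141 and 148 k in the left eyes of the same numbers. It thus took only 4 different values, at ranks 13 to 16, with right eye 66 and left eye 61 above the rest and 6 libraries on one step.

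miR-125a-5p, its seed partner from chromosome 17, had 117, 117, 141, 133 and 133 k in right eyes and 148, 108, 133, 133 and 133 k in left eyes, in the same order of numbers. The left eyes of numbers 61 and 64 held its highest and its lowest value, and the sides overlapped.

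miR-99b-5p, from the same cluster as miR-125a, had 126, 98.5, 117, 117 and 105 k in right eyes and 133, 98.5, 108, 117 and 117 k in left eyes. Both eyes of number 64 were lowest and both eyes of number 61 highest.

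miR-100-5p, of the chromosome 9 cluster, had 38.7, 35.1, 37.0, 37.0 and 35.1 k in right eyes and 40.9, 32.9, 32.9, 38.7 and 35.1 k in left eyes. Its values spanned 1.24-fold from lowest to highest, the narrowest range of the 5 members.

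miR-99a-5p, of the chromosome 16 cluster, had 30.4, 24.0, 28.9, 33.6 and 31.6 k in right eyes and 33.6, 28.9, 28.9, 31.6 and 32.9 k in left eyes. Right eye 64 was lowest, and the highest over the lowest value was 1.40-fold.

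**Figure D1:**
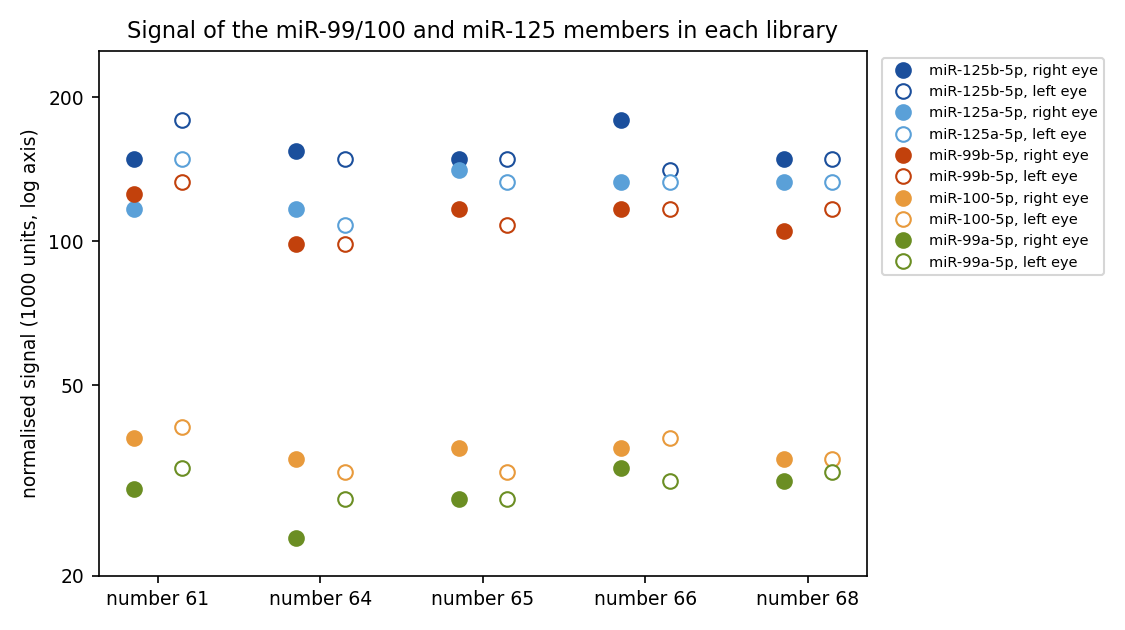
Normalised signal (log axis, units of 1000) of the 5 members in the 10 libraries, by title number, with filled points for right and open points for left eyes. The members fall into an upper group of miR-125b-5p, miR-125a-5p and miR-99b-5p between 98.5 and 179 k and a lower group of miR-100-5p and miR-99a-5p between 24.0 and 40.9 k.

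The order of the members was nearly fixed. miR-125b-5p was above miR-125a-5p in all 10 libraries with a median ratio of 1.16, although their ranges overlapped. miR-125a-5p was above miR-99b-5p in 9 of 10 libraries (median ratio 1.14), with right eye 61 as the exception. The one wide gap lay between miR-99b-5p and miR-100-5p, where the ratio was 2.81 to 3.33 and the ranges did not meet. miR-100-5p was above miR-99a-5p in all 10 libraries at a median ratio of 1.18, so these near-identical miRNAs stood side by side. One rank step was worth a median of 1.06-fold at ranks 13 to 22 and 1.04-fold at ranks 37 to 51, the ranks the members took.

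On the scale log2(signal + 1), used for all tests, the SD over the 10 libraries was 0.12 for miR-125b-5p, 0.14 for miR-125a-5p, 0.14 for miR-99b-5p, 0.10 for miR-100-5p and 0.15 for miR-99a-5p. Over all 588 miRNAs with a mean signal of at least 10, which include all 5 members, the median SD was 0.34. Between 12 of these 588 (for miR-100-5p) and 47 (for miR-99a-5p) had a smaller SD than the member. Among the 60 miRNAs of highest mean signal, a number chosen after the values were seen so as to hold every member, 3 to 18 had a smaller SD. The rank steps of the deposited signal enter this spread, and their part in it was not tested.

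**Figure D2:**
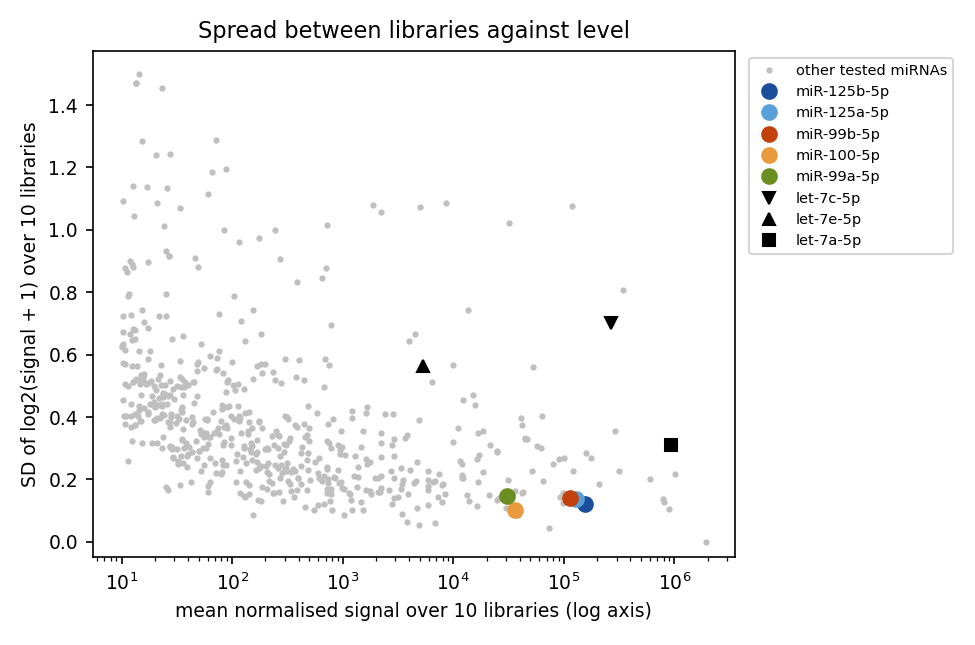
SD of log2(signal + 1) over the 10 libraries against mean signal (log axis) for the 588 miRNAs tested, with the 5 members coloured and the let-7 miRNAs of the same clusters in black. The members lie between 0.10 and 0.15, and let-7c-5p, let-7e-5p and let-7a-5p at 0.70, 0.56 and 0.31.

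Right and left eyes were compared to ask for a difference between the sides of an animal, with limma and the title number as a block. None of the 5 members passed an adjusted p of 0.05. Of all 588 miRNAs tested, 0 passed (0%), with 13 at an unadjusted p under 0.05, none of them a member. The log2 fold change, right over left, was 0.026 for miR-125b-5p (limma adjusted p = 0.983), with a mean of 156 ± 13.4 k in right eyes and 153 ± 15.1 k in left eyes (SD, n = 5 each). For the other 4 members the limma adjusted p was 0.967. miR-125a-5p had a log2 fold change of -0.029 and was higher in 2 right eyes, lower in 1 and tied in 2 of the 5 numbers. The values were -0.025 for miR-99b-5p and 0.023 for miR-100-5p. miR-99a-5p had the difference farthest from 0, at -0.077, with 29.7 ± 3.61 k in right eyes and 31.2 ± 2.20 k in left eyes. Across the 5 members the 95% intervals lay between -0.25 and 0.24 on the log2 scale, or 0.844-fold and 1.18-fold right over left. The median log2 fold change was -0.02 over the members and 0.02 over all 588. Leaving out single numbers turned the sign for 4 of the 5, and miR-99a-5p stayed below 0, between -0.12 and -0.029.

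The relatives also missed the threshold. None of the 6 passenger arms, the let-7 miRNAs of the clusters, miR-10a-5p, miR-10b-5p or miR-351-5p passed in limma. miR-10a-5p had 15.0 ± 2.70 k in right eyes and 17.6 ± 2.84 k in left eyes (SD, n = 5 each). Its log2 fold change was -0.23 (limma adjusted p = 0.967). let-7c-5p, at -0.21, was lower in 3 right eyes and tied in 2.

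**Figure D3:**
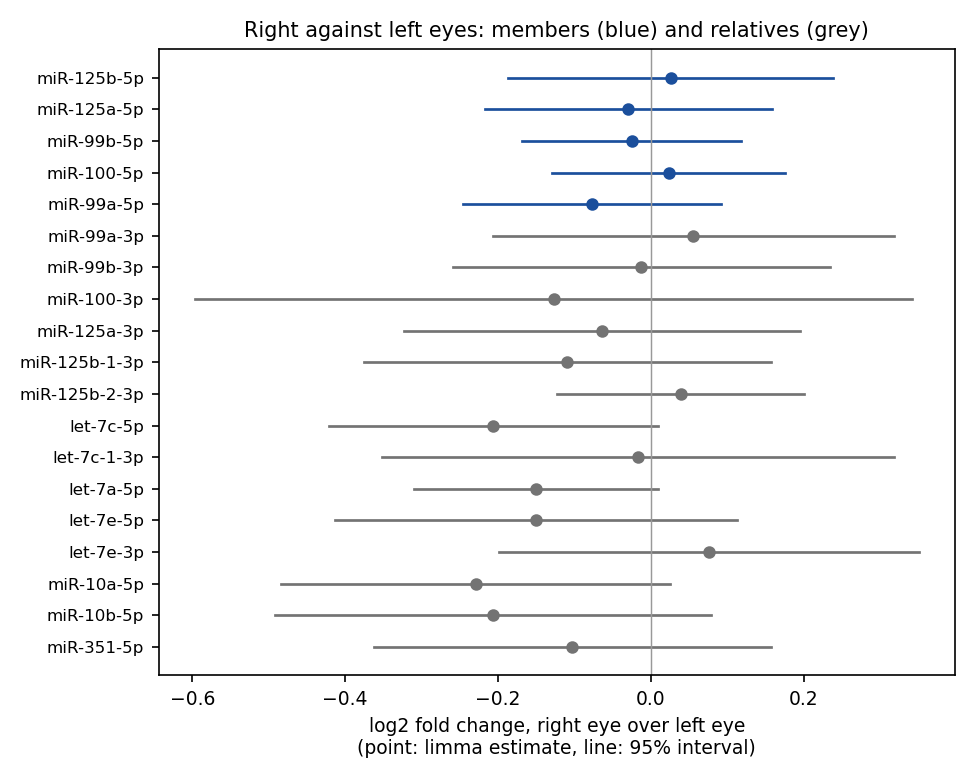
Log2 fold change of right over left eyes from limma (points) with 95% intervals (lines) for the 5 members in blue and for passenger arms, let-7 miRNAs, miR-10a/b-5p and miR-351-5p in grey. All 19 intervals include 0, and those of the members stay between -0.25 and 0.24.

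The eyes were next compared by title number, to ask whether a member differed more among the 5 numbers than between the 2 eyes of a number (limma F test with side as a covariate). None of the 5 members passed, against 7 of 588 miRNAs (1.19%) in the table. The nearest was miR-99b-5p, with an unadjusted p of 0.0452 and a limma adjusted p = 0.207. Its mean log2 signal was 16.98 in number 61 and 16.59 in number 64, and its 2 eyes of a number differed by at most 0.16. The limma adjusted p was 0.328 for miR-99a-5p, 0.456 for miR-100-5p, 0.479 for miR-125a-5p and 0.891 for miR-125b-5p. Number 64 had the lowest mean in 4 of the 5 members, all but miR-125b-5p, at 0.23 to 0.39 below the highest number. How often number 64 was lowest over all 588 miRNAs was not counted, so this is a description and not a trait of the members.

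The let-7 miRNAs of the same clusters had wider differences among the numbers, although whether they differed more than the members was not itself tested. let-7c-5p, which shares the host gene of miR-99a, had 404, 404, 154, 195 and 117 k in right eyes 61, 64, 65, 66 and 68 and 404, 404, 226, 226 and 141 k in left eyes. Its values in numbers 61 and 64 were tied on one rank step, above all 6 other libraries. It passed the F test (limma adjusted p = 0.0177), with number means that spanned 1.65 on the log2 scale, against 0.31 for miR-99a-5p. The part of ties and rank steps in the F and the span was not tested, here or for the let-7 miRNAs below.

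let-7e-5p, which lies between miR-99b and miR-125a, had 6.97, 8.32, 4.37, 3.26 and 2.89 k in right eyes and 7.54, 7.21, 4.82, 4.82 and 3.19 k in left eyes. Again numbers 61 and 64 were above the others, and it passed as well (limma adjusted p = 0.0430, span 1.35). let-7a-5p had a limma adjusted p = 0.0518 and a span of 0.71, with 1150 k in all 4 libraries of numbers 61 and 64 and 628 to 940 k in the rest. let-7a-5p passed at adjusted p = 0.0357 with a mean signal of at least 100, at 0.0477 without number 66 and at 0.0498 without side as a covariate (limma). The let-7c-5p and let-7e-5p calls did not hold in every fit with a number left out, in which fewer libraries enter. For let-7c-5p F was 51.0 with all numbers. It was 48.9 without number 61 (limma adjusted p = 0.0859), 45.4 without 64 (0.106) and 34.2 without 68 (0.0948), and the call held without 65 or 66. For let-7e-5p F was 21.6 with all numbers. It was 17.8 without 61 (limma adjusted p = 0.147), 23.8 without 64 (0.106), 23.8 without 65 (0.0797) and 12.7 without 68 (0.272), and the call held without 66. The call of let-7e-5p was thus lost without 64 or 65 although F was no smaller. Of the 12 other miRNAs listed for the 3 clusters, 11 were tested and these 2 passed, while let-7a-2-3p had a mean signal of 8.15 and was not tested. The let-7 3p arms that were tested did not follow the same order of numbers. let-7c-1-3p was lowest in numbers 64 and 61 (mean log2 signal 6.07 and 6.12) and highest in 65 (6.60). let-7e-3p was highest in 65 (8.29) and lowest in 68 (7.82). let-7b-5p, outside the 3 clusters and named after its values were seen, also passed, with a span of 1.81 (limma adjusted p = 0.0430). let-7a and let-7c differ by A19G alone and each has a further locus, so reads of the one may be counted for the other.

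The same libraries can be read as ratios. let-7c-5p over miR-99a-5p ran from 3.70 in right eye 68 to 16.8 in right eye 64. miR-99b-5p was 18.0, 11.8, 26.8, 35.8 and 36.3 times let-7e-5p in right eyes 61, 64, 65, 66 and 68, and 17.6, 13.7, 22.5, 24.3 and 36.6 times in left eyes, although their hairpins are neighbours. let-7a-5p over miR-100-5p ran from 17.9 to 34.9. The SD of the log2 ratio over the 10 libraries was 0.08 to 0.15 for the 10 pairs of members. The pair with the smallest SD, miR-99b-5p and miR-100-5p, is encoded on different chromosomes. For a member with a let-7 of its own cluster it was 0.77 for miR-99a-5p with let-7c-5p, 0.64 for miR-125a-5p with let-7e-5p, 0.59 for miR-99b-5p with let-7e-5p and 0.31 for miR-100-5p with let-7a-5p. For miR-125b-5p, which has a copy in 2 of the clusters, it was 0.69 with let-7c-5p and 0.32 with let-7a-5p. With a let-7 of another cluster it ran from 0.34 (miR-99b-5p with let-7a-5p) to 0.78 (miR-125a-5p with let-7c-5p). The SDs of let-7c-5p, let-7e-5p and let-7a-5p alone, 0.70, 0.56 and 0.31, enter these ratios. For let-7a-5p both cluster mates, at 0.313 and 0.317, were below the members of other clusters, at 0.336 to 0.394. For let-7c-5p the mates had 0.686 and 0.768, against 0.690 to 0.779 for the other members. For let-7e-5p they had 0.586 and 0.636, against 0.557 to 0.654. Cluster mates were thus not set apart from the other members for let-7c-5p as a pair or for let-7e-5p, and only by a small margin for let-7a-5p. These SDs are a description, as the ratios share libraries and rank steps and were not tested.

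**Figure D4:**
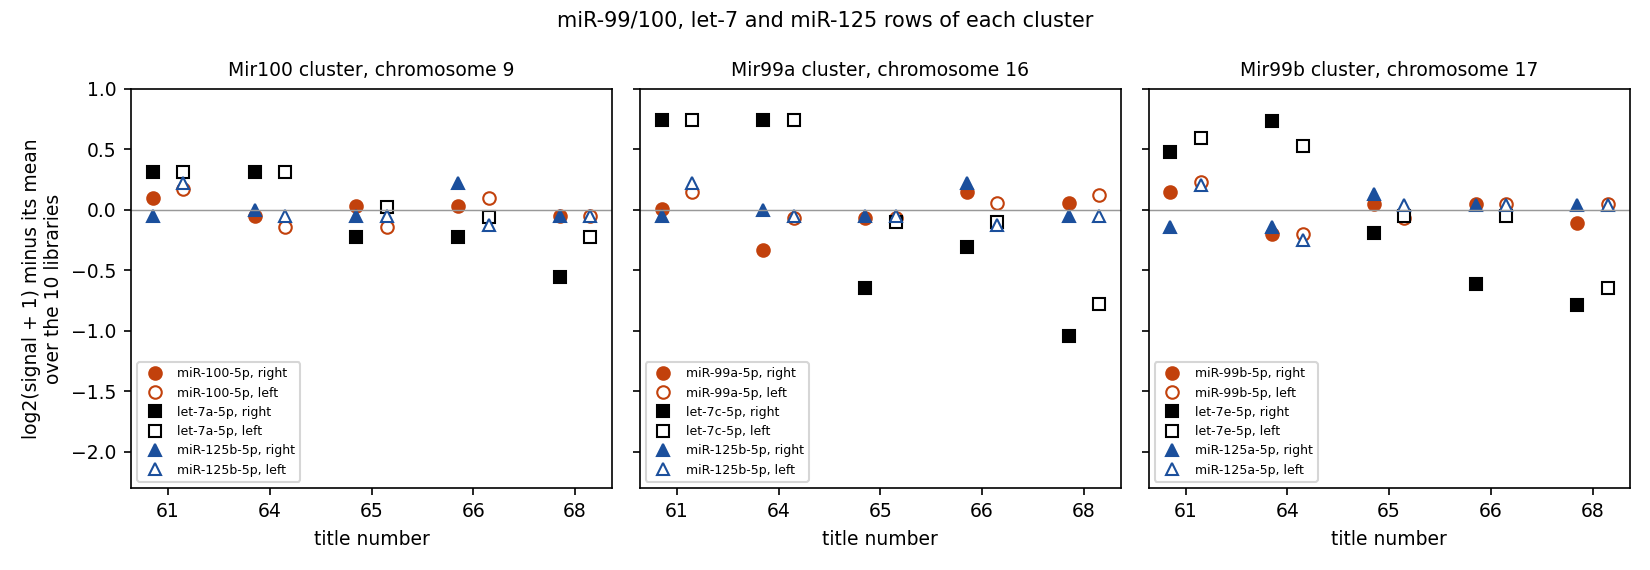
Log2(signal + 1) of each miRNA minus its own mean over the 10 libraries, by title number, in the clusters of chromosomes 9, 16 and 17, with filled points for right and open points for left eyes. The let-7 miRNAs (black squares) are high in numbers 61 and 64 and lowest in number 68, while the members (circles and triangles) stay within 0.35 of their mean.

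In every member hairpin the 5p arm was the abundant one, and the margin differed between hairpins. miR-100-5p had 1013 times the signal of miR-100-3p (mean over the 10 libraries on the log scale, range 711 to 1691). The fold was 278 for miR-125a (187 to 426), 230 for miR-99b (140 to 338) and 84.1 for miR-99a (67.6 to 102). For miR-125b the 2 hairpins leave different 3p arms. miR-125b-1-3p, from chromosome 9, had 12.9, 14.3, 11.1, 8.97 and 8.11 k in right eyes 61, 64, 65, 66 and 68 and 14.0, 12.0, 10.6, 11.1 and 11.1 k in left eyes. miR-125b-2-3p, from chromosome 16, had 8.32, 7.21, 7.54, 8.32 and 8.32 k in right eyes and 8.32, 6.97, 6.97, 7.54 and 8.97 k in left eyes. Both miR-125b hairpins were thus represented, the chromosome 9 arm above the chromosome 16 arm in 9 of 10 libraries with right eye 68 as the exception (ratio 0.975, median 1.49). miR-125b-5p was 7.90 times the sum of both 3p arms (median, range 6.99 to 10.4), the smallest margin among the members.

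None of the 185 hairpins with both arms kept differed in the ratio of arms between right and left eyes (0%, limma, 5 at an unadjusted p under 0.05). The limma adjusted p of the 6 member hairpins was 0.944 or 0.976. The log2 ratio of 5p to 3p for miR-100 averaged 10.06 in right eyes and 9.91 in left eyes, a difference of 0.15 with a 95% interval from -0.33 to 0.63. Among the passenger arms, miR-125a-3p and miR-99b-3p had spans of number means of 0.85 and 0.89 on the log2 scale, with number 68 lowest in both, against 0.28 and 0.39 for their 5p arms. Both missed the threshold of the F test at limma adjusted p = 0.112. miR-100-3p, at a low mean signal of 35.8, spanned 0.88 with number 68 highest. Number 68 was also highest for miR-99a-3p and miR-125b-2-3p, and it was lowest for miR-125b-1-3p.

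**Figure D5:**
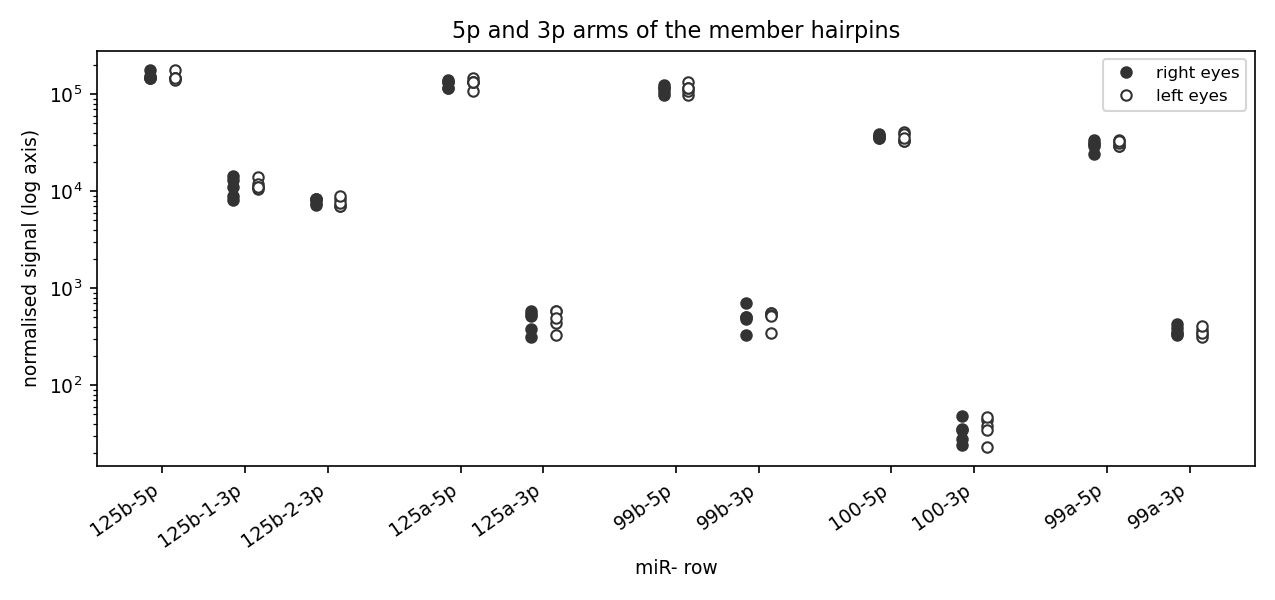
Normalised signal (log axis) of the 5p and 3p arms of the member hairpins, 1 point per library, with filled points for right and open points for left eyes. Each 5p arm lies above its 3p arm, from 7.90-fold over both 3p arms together for miR-125b (median) to 1013-fold for miR-100.

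miR-351-5p, the other abundant miRNA with the miR-125 seed, had 15.3, 16.1, 18.7, 20.7 and 18.7 k in right eyes and 20.7, 14.3, 24.0, 19.1 and 18.7 k in left eyes, below both miR-125 members in every library. miR-10a-5p and miR-10b-5p averaged 16.3 and 16.96 k over the 10 libraries, below miR-99a-5p, the lowest member.

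By Pearson r of log2(signal + 1) over the 10 libraries, given as a description because the likest of 586 miRNAs were picked, miR-99b-5p and miR-100-5p were among the 3 nearest to each other (r = 0.84, Spearman rho = 0.85). The nearest to miR-125a-5p was its seed relative miR-351-5p (r = 0.80, rho = 0.71), followed by miR-467a-5p (r = 0.78) and miR-23b-3p (r = 0.78). For miR-99a-5p they were miR-3081-3p (r = 0.93), miR-148a-5p (r = 0.87) and miR-369-5p (r = 0.86). The others nearest to miR-99b-5p were miR-543-5p (r = 0.90) and miR-501-3p (r = 0.83), and to miR-100-5p miR-1964-3p (r = 0.86) and miR-1193-3p (r = 0.86). miR-125b-5p had the weakest, miR-6538 (r = 0.76), miR-5126 (r = 0.76) and miR-543-3p (r = 0.73). Over all these pairs Spearman rho ran from 0.45 (miR-125b-5p with miR-543-3p) to 0.87 (miR-125b-5p with miR-5126). Several of the nearest miRNAs were low. Mean signal was 21.1 for miR-467a-5p, 27.2 for miR-543-5p, 28.9 for miR-1964-3p and 39.3 for miR-3081-3p, against 30.4 k for miR-99a-5p, the lowest member. The points come in pairs of eyes and share rank steps.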

How the data were processed

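Small RNA libraries (TruSeq small RNA kit, per the labels' protocols) were aligned and counted by the authors with Bowtie and Partek on GRCm38 (mm10); both tools and the build are named, without versions, in the submitters' processing notes. The deposited values are a normalised signal for 1340 mature miRNAs. For the normalisation, no method is named in the sources used here. Whole numbers (within 0.001) made up 7.31% of nonzero signal, so reads were not recovered and no count model was used. Retinae are mentioned in the extraction text, but the tissue label was followed.

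Values were analysed as log2(signal + 1) for the 588 miRNAs with a mean signal of at least 10. Fold changes on that scale understate changes of low miRNAs. limma 3.58.1 in R 4.3.3 was used with a mean-variance trend, two-sided tests and Benjamini-Hochberg adjustment over all miRNAs (or 185 hairpins) at 0.05, after a test on simulated data. The block by title number follows the protocol's comparison of contralateral eyes. Same-numbered eyes deviated together with correlations between -0.13 and 0.45 across miRNAs, so the data alone do not establish the pairing. Nothing tells whether libraries of a number share a day or run. With number and side in the model, p-values rest on how far the right-left difference varied among the numbers of these libraries. The variance of each miRNA was drawn toward the trend over all miRNAs.

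Members, lists and tests were chosen with earlier results of these data known. Named were the members, the miRNAs of their clusters, seed relatives, miR-10a/b-5p and the 3 likest patterns per member, and cell type marker lists. let-7b-5p was added after its values were seen. File coordinates end 1 base past the RefSeq end, and RefSeq coordinates were printed. Alternatives were other pseudocounts and filters, no trend, no block or side term, and each number left out.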

Additional observations from a re-analysis of the deposited data

Results flagged for a closer look

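In 40 checks of the named miRNAs, 20 on each side, 3 found a single eye that lay apart from the rest of its side (log2 scale), where chance gives about 1 in 20. The figure of 1 in 20 does not allow for shared rank steps, on which several of these values lie. miR-125b-5p stood at 179294 in right eye 66 (rank 13), against 148322 to 153995 in the other right eyes (ranks 15 and 14). The gap to the next right eye was thus 1 rank step, the largest at ranks 13 to 22 (1.16-fold). miR-125b-5p stood at the same rank step, 179294, in left eye 61, against 140793 to 148322 in the other left eyes (ranks 16 and 15). The part of the rank steps in these gaps was not tested. miR-99b-3p was at 344 in left eye 68, against 521 to 551 in the other left eyes; its right eye 68 was also the lowest of that side.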

How the results depend on the processing

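No member, passenger arm or hairpin changed its side of the threshold in any comparison under any alternative, and the counts of 0 for right against left eyes held in all 11 alternatives for miRNAs and for hairpins. Without the replicate block the count was 0 as well, and the adjusted p of each member was 0.997. Leaving out a number turned directions, with log2 fold changes from -0.065 to 0.049 for miR-125a-5p, -0.013 to 0.049 for miR-100-5p, -0.055 to 0.10 for miR-125b-5p and -0.059 to 0.0080 for miR-99b-5p. Among relatives they ran from -0.10 to 0.035 for miR-99b-3p, -0.085 to 0.085 for let-7c-1-3p, -0.22 to 0.049 for miR-100-3p, -0.044 to 0.087 for miR-99a-3p and -0.14 to 0.018 for miR-125a-3p. The arm differences ran from -0.068 to 0.052 for miR-125b-2, -0.063 to 0.071 for miR-99b, -0.043 to 0.27 for miR-100 and -0.055 to 0.11 for miR-125a. The count that differed among numbers, 7, was 23 with a mean signal of at least 100, 0 without the trend, 26 without the side term and 0 to 22 with a number left out; the cause was not tested. Without the trend let-7c-5p and let-7e-5p missed the threshold at adjusted p = 0.106 and 0.137 in limma. The member share was 4.67% of the signal without miR-204-5p. miR-100-3p and let-7c-1-3p are too low to be kept at a mean of 100. Depth is unknown, and rank steps limit what can be seen in abundant miRNAs.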

Other observations

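The let-7 miRNAs of the 3 clusters were also set against each other. The SD of the log2 ratio over the 10 libraries was 0.24 for let-7c-5p with let-7e-5p, from chromosomes 16 and 17, 0.28 for let-7a-5p with let-7e-5p and 0.40 for let-7c-5p with let-7a-5p. With members of the same cluster it was 0.77 and 0.69 for let-7c-5p (miR-99a-5p and miR-125b-5p) and 0.59 and 0.64 for let-7e-5p (miR-99b-5p and miR-125a-5p). For let-7a-5p it was 0.31 with miR-100-5p and 0.32 with miR-125b-5p, below its value with let-7c-5p. With members of the other clusters it was 0.69 to 0.78 for let-7c-5p, 0.56 to 0.65 for let-7e-5p and 0.34 to 0.39 for let-7a-5p. These pairs were chosen with their values known, as a description without a test.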
